A study of Mus musculus with 26 samples.

Results

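The 40 genes described here act in spermiogenesis, the remodelling of round spermatids into sperm, or build the sperm head and tail. They were taken by name from 49943 RefSeq genes of the mouse: 5 genes of chromatin condensation, 9 of the acrosome and of contact with the egg, 13 of the flagellum and its sheaths, 3 of glycolysis, 4 subunits of the CatSper calcium channel, and 6 genes of kinases, a chaperone and a transcription factor. The rule used the names of the genes and no measured value. A CpG position was assigned to a gene when it lay inside the gene's span in GRCm38 or within 2000 bp of it, and it was used in a library when at least 10 reads covered it. Of 2626470 such positions in the series, 2096 belonged to these genes.

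DNA methylation was measured in epididymal sperm by reduced-representation bisulfite sequencing (RRBS), in which DNA is cut at CCGG sites and CpG-rich fragments are sequenced after bisulfite conversion, so that each read reports a CpG as methylated or not. Spermatogonial stem cells (SSCs) of neonatal DBA/2J mice had been cultured and transplanted (SSCT) into testes of W/W-v males of the WBB6F1/J background, which make no sperm of their own. Donor-derived sperm of 3 transplanted males (SSCT F0) and sperm of 3 DBA/2J males (Control F0) were collected at 16 to 18 months of age. The offspring were 20 males labelled DBA/2J and aged 3 months, 5 in each of the groups SSCT F2/M, SSCT F2/P, SSCT F1 and Control F1. SSCT F2/M mice descended from SSCT F1 females mated with control males, and SSCT F2/P mice from SSCT F1 males mated with control females. A single control generation was bred and serves both SSCT generations, and the transplanted males differed from Control F0 in the strain of the host testis as well as in culture and transplantation. Each library came from 1 mouse, and the labels do not tie mice to litters or fathers.

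The names of the offspring groups are not settled. The deposited sample titles were used, but the published clustering plot gives the same sets of mice other names: the set titled SSCT F1 is SSCT F2/P there, Control F1 is SSCT F2/M, SSCT F2/M is Control F1, and SSCT F2/P is SSCT F1. The treatment given in the labels is wild type for the mice titled SSCT F2/M as well as for those titled Control F1, and SSCT for the others. Differences between offspring groups therefore hold for the sets as titled, and counts under the names of the plot stand beside them. A test over all 4 offspring groups at once does not depend on the names.

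In late spermatids most histones are replaced first by transition proteins and then by protamines, the acrosome forms as a secretory cap over the nucleus, and the tail is assembled from an axoneme with outer dense fibers, a fibrous sheath and a mitochondrial sheath. Transcription stops during this remodelling, so the genes are switched on in round spermatids and several transcripts are stored. In sperm DNA, CpG-rich starts of genes are mostly unmethylated and the rest of the genome is mostly methylated, and several genes of this class are known for CpG-poor promoters.

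The coverage decided which of the genes could be described. Summed over CpG positions, the coverage of the libraries was 45616800 to 87707600. A read that spans several CpGs counts at each of them. A position was described when at least 10 of the 20 offspring covered it, which left 1513 positions in 34 genes. Prm2 (protamine 2), Smcp (a protein of the mitochondrial sheath) and Pgk2 (a glycolytic kinase of spermatids) had no position with 10 reads in any library. Prm1 (protamine 1) had 11 positions seen in 10 libraries, with 95.8% of 1310 reads methylated. Prm3, another gene of the protamine cluster, had 7 positions in 14 libraries with 97.6% of 788 reads methylated, and these positions also lie within the margin of Tnp2. Acrv1, which encodes an acrosomal vesicle protein, had 1 position in 1 library, methylated in all of its 11 reads.

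The libraries of the transplanted males stood apart in coverage. SSCT F0 replicate 3 covered 180 positions of these genes and SSCT F0 replicate 2 covered 891, against 1231 to 1533 in the other 24 libraries. Among positions with at least 10 reads the median coverage was 392 reads in SSCT F0 replicate 3 and 41 in SSCT F0 replicate 2. Reads carry no molecular identifiers, so they are not independent molecules. Added control DNA was 0.542% to 1.26% methylated where it should be unmethylated and 98.2% to 98.9% where it should be methylated. Of the imprinted markers, 6 genes unmethylated in sperm averaged 10.5% to 16.5% in the offspring. Their average was 11.2% to 14.6% in Control F0 and 2.37% to 11.5% in SSCT F0. Among them Peg10 stood higher, at 27.9% to 44.9% in the offspring and 32.2% to 38.3% in Control F0. The other genes of this list lay at 24.0% or lower in each offspring library. Marker values, that of H19 included, are means by gene, and the imprinted regions were not set apart. H19, which is methylated in sperm, lay at 42.3% to 75.9% in the libraries other than those of SSCT F0. Within SSCT F0 it was at 56.7% in replicate 1, 69.0% in replicate 2 and 0.0282% in replicate 3. The number of H19 positions read per library ran from 5 to 26. The part of somatic DNA in these results was not tested. Founder comparisons are given with and without SSCT F0 replicate 3.

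The following windows run from 250 bases before to 50 bases after the annotated start and are taken from RefSeq, build GRCm38.p6. They were chosen to run from starts with few CpGs (Prm1 and Tssk1) to CpG-rich ones (Tssk6, Spaca1 and Zpbp2). The starts with the most measured positions, those of Odf2 and Catsper2, are not printed. Each is written 5′ to 3′ on the strand of the gene, and capitals mark CpGs. Tnp1 (transition protein 1) lies at chr1:73015850-73016149 on the minus strand, Zpbp2 (a zona pellucida binding protein of the acrosome) at chr11:98550847-98551146 on the plus strand, Spaca1 (a protein of the acrosomal membrane) at chr4:34050016-34050315 on the minus strand, Tssk6 (a testis-specific serine kinase) at chr8:69901934-69902233 on the plus strand, Prm1 at chr16:10796774-10797073 on the minus strand, and Tssk1 (another kinase of that family) at chr16:17893953-17894252 on the plus strand.
Tnp1: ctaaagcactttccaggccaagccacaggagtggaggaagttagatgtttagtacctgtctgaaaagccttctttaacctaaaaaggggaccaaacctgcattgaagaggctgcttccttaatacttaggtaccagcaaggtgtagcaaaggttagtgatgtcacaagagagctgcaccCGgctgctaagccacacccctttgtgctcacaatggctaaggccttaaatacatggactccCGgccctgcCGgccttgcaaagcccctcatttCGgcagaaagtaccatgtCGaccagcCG
Zpbp2: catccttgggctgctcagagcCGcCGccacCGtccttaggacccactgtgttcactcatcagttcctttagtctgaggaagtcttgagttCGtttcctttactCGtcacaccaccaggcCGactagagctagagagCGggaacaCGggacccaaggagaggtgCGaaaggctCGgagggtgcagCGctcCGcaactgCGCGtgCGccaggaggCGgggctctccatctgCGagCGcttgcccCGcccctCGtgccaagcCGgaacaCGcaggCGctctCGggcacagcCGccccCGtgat
Spaca1: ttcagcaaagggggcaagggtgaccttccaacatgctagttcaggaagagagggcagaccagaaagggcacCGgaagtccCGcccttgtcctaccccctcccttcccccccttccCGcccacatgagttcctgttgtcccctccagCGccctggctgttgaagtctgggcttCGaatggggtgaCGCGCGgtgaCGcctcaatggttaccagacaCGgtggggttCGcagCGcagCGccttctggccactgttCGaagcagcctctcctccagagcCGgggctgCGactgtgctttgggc
Tssk6: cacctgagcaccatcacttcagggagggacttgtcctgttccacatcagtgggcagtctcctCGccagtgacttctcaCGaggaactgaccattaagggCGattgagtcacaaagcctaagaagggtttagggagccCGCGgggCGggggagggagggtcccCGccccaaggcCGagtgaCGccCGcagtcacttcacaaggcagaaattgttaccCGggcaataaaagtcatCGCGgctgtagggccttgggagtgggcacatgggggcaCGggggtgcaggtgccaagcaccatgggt
Prm1: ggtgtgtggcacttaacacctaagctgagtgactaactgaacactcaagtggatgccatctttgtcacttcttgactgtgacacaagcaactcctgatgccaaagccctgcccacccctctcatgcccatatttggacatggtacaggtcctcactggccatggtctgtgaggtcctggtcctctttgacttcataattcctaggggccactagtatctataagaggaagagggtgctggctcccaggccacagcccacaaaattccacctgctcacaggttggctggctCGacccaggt
Tssk1: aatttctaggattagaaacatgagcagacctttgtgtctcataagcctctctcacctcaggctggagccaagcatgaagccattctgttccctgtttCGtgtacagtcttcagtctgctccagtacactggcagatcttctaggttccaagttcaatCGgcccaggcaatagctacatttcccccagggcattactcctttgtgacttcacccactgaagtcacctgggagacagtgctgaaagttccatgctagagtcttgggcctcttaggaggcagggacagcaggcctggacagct

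All 6 CpGs of the Tnp1 window were measured in the offspring, and they averaged 0.686% to 5.11% methylation. In the Zpbp2 window 6 of 26 CpGs were measured, at 0% to 2.15%. In the Spaca1 window 4 of 16 were measured, at 0.208% to 1%, and in the Tssk6 window 7 of 14, at 0% to 2.66%. The windows of Prm1 and Tssk1 hold 1 and 2 CpGs, of which none was measured. RRBS sees CpGs close to a CCGG site. The Tnp1 window holds 3 such sites and the Prm1 and Tssk1 windows hold none, while the windows of Izumo1, Tnp2 and Spem1 hold 1 each and no measured CpG.

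A start was listed in the promoter table for 34 of the 40 genes. Acr, Odf1, Adam2, Cabyr, Catsper1 and Crem are not in it. Over the 34 genes the window of 300 bases held a median of 6.5 CpGs, against 8 over 27025 genes of the mouse, taking for each gene the start with the most measured positions. At least 1 CCGG stood in 15 windows (44.1%), against 54.0% of all. The windows of Akap3 and Smcp held no CpG. The palindrome TGACGTCA, the full site bound by CREM and related factors and the same on both strands, occurred in 1 window, that of Izumo1 (2.94%, against 1.88% of all). A match is a description of the letters and not a bound site.

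Near their starts these genes were unmethylated in sperm wherever enough CpGs could be read, with 1 exception. Of the 34 genes, 17 had at least 3 described positions within 500 bp of a start, and in 16 of them these positions averaged under 20%. The same held for 91.0% of 14041 genes with as many positions, for 17 of 18 other late spermatogenesis genes and for 22 of 23 genes of meiosis and of the piRNA pathway. The exception was Tssk1, whose 8 positions from +143 to +325 bp averaged 98.9%. With 1 position each, Tnp2 (transition protein 2) stood at 88.8% at +169 bp and Catsper3 at 98.8%.

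**Figure D1:**
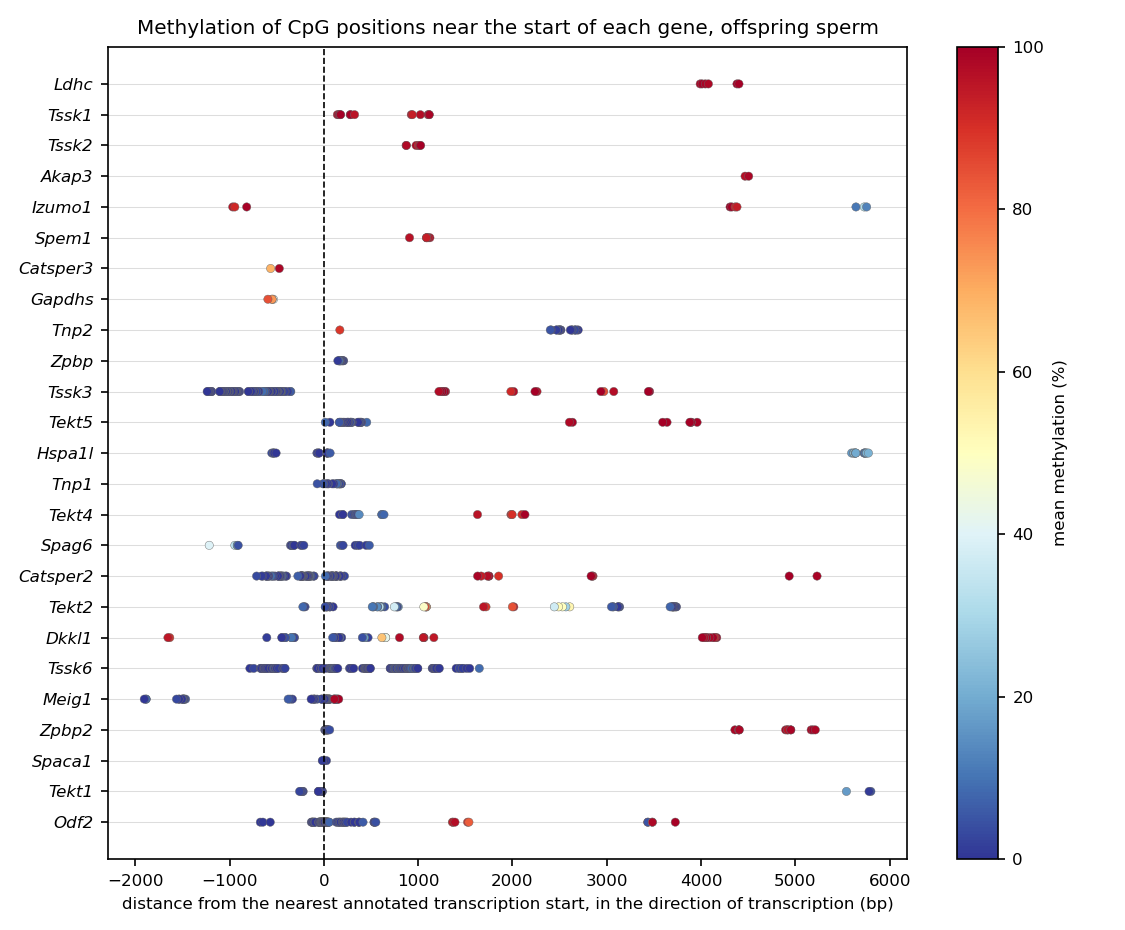
Mean methylation in the offspring (color, in percent) of each described CpG position by its distance in bp from the nearest annotated transcription start, one row per gene, for genes with such a position in the range drawn. Positions around the start are mostly blue (16 of 17 genes with 3 or more positions average under 20%), single positions of Tnp2, Catsper3 and Meig1 are red, Tssk1 is red from +143 bp on, and positions far downstream are mostly red.

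Over all described positions of the genes the levels fell at both ends of the scale. Of the 1513 positions, 1108 (73.2%) averaged under 20%, 349 (23.1%) over 80% and 56 (3.70%) between. Over all 1721389 described positions of the genome the shares were 62.6%, 31.2% and 6.22%, and over those within 2000 bp of any gene 69.1%, 26.8% and 4.17%. Positions of these genes thus lay near the shares of genes in general. Of the 1513 positions, 467 also lie inside the span of another gene, so a value near a shared end cannot be given to 1 gene alone. Exons and introns were not assigned.

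The genes fell into a few types. In 22 genes positions under 20% and positions over 80% both occurred. Tnp1 and Tssk6 had only positions under 20%. Odf1, Catsper4, Tssk2, Tssk1, Acr, Spem1 and Catsper1 had only positions over 80%, with 3 to 15 positions each. Those of Odf1 all lie outside its span. Crisp2, a cysteine-rich secretory protein of acrosome and tail, had only 3 positions, all between 20% and 80%.

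**Figure D2:**
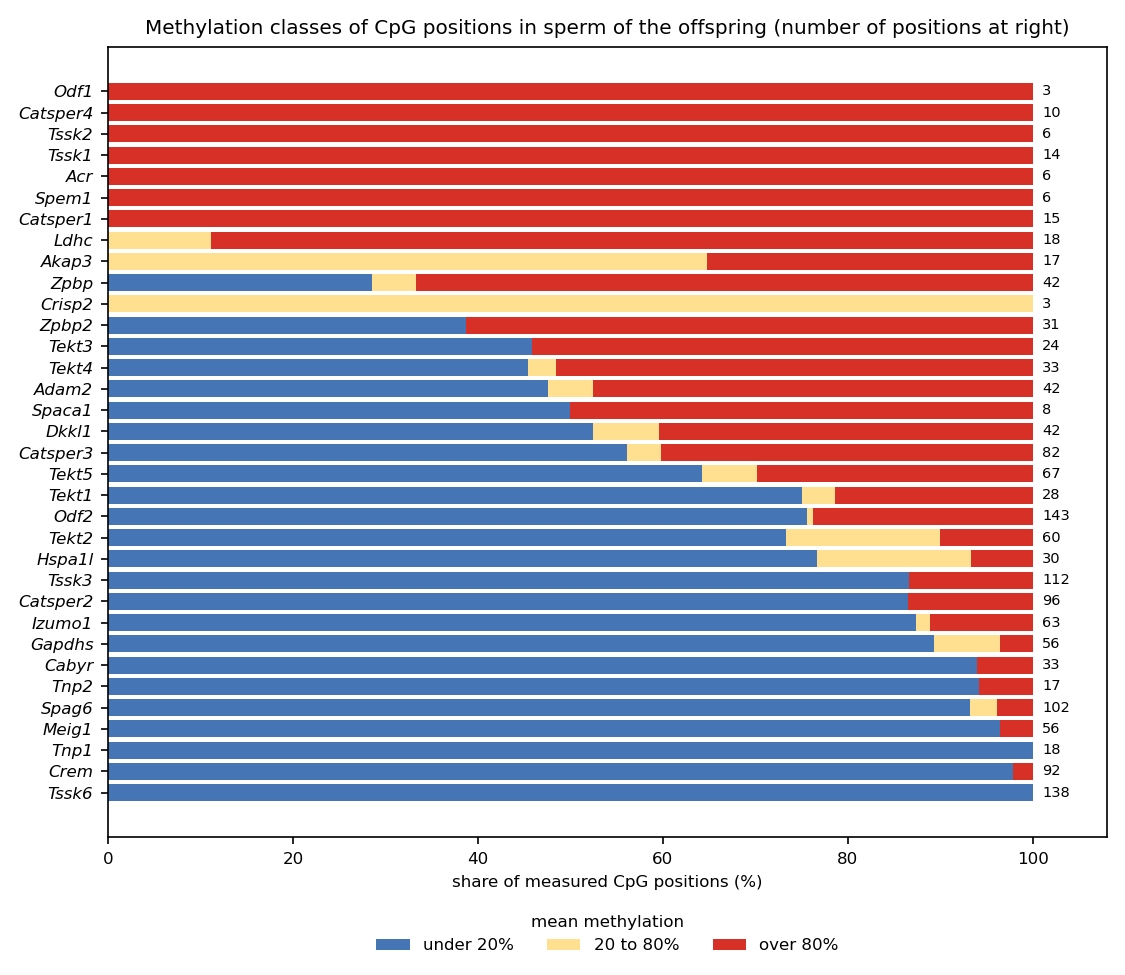
Share of the described CpG positions of each of 34 genes (horizontal axis, percent) that averaged under 20%, 20% to 80% or over 80% methylation in the offspring, with the number of positions at right. The genes run from Odf1 with 3 positions all over 80% to Tssk6 with 138 positions all under 20%.

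Among the genes of chromatin condensation only the transition proteins had described positions, and those of Tnp1 were low. Tnp1 had 18 positions, all within 500 bp of its start, with a mean of 3.55% and a highest position of 14.9%. Tnp2 had 16 positions between 2401 and 2697 bp downstream of its start, which averaged 2.05%, beside the single position of 88.8% near the start. The mean of Tnp1 over 15 positions read in all 20 offspring was 3.91%, with a lowest mouse of 0.741%, a median of 4.13% and a highest of 7.30%. The mean of Tnp2 over 3 positions, all outside its span, was 1.09%, from 0% to 5.97%.

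Genes of the acrosome paired an unmethylated start with a methylated body. Zpbp2 averaged 0.928% over 12 positions within 500 bp of its start and 98.3% over 12 positions in a segment 4359 to 5212 bp downstream. Zpbp, the paralog that also binds the zona pellucida, averaged 2.06% over 12 positions near its start, and its segments between 36053 and 174811 bp downstream averaged from 87.5% to 99.1%. Spaca1 stood at 0.777% over 4 positions at its start and at 99.0% over 3 positions 18378 to 18557 bp downstream. Dkkl1, an acrosomal protein related to Dickkopf, averaged 4.02% over 21 positions near its start and 97.9% over 10 positions 4013 to 4166 bp downstream.

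The remaining acrosomal genes could be read only away from a listed start. Acr, which encodes the protease acrosin, averaged 97.6% over 6 positions. Adam2, a sperm surface protein of the fertilin complex, had 20 positions under 20% and 20 over 80%. Izumo1, which binds the egg receptor, had 53 positions at 1.07% between 6774 and 7185 bp downstream, all inside another gene, and 4 positions at 96.3% between 4308 and 4381 bp.

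The genes of the flagellum showed the same contrast over longer stretches. Odf2, a protein of the outer dense fibers, held 100 positions within 500 bp of its start, the most of any of the genes, with a mean of 1.18% and a highest position of 7.81%. Its 4 segments from 18577 to 41569 bp downstream averaged 96.9% to 98.3%. Spag6, a protein of the central pair of the axoneme, averaged 2.15% over 17 positions near its start, and Meig1, which is needed for spermatid elongation, 1.44% over 40. The 2 positions of Meig1 over 80% lie 112 and 157 bp downstream of another of its starts, at 98.4% and 99.5%.

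The tektins, filament proteins of the axonemal doublets, were low at the start in each of the 4 genes that could be read there. Means within 500 bp of the start were 0.967% for Tekt1, 1.75% for Tekt2, 3.83% for Tekt4 and 1.99% for Tekt5. Tekt3 had no position there, and its 8 positions 19656 to 19714 bp downstream averaged 98.3%. Its 11 positions under 20% lay 25641 to 26279 bp downstream and averaged 12.5%, with mice from 0% to 33.3%. Cabyr, a calcium-binding protein of the fibrous sheath, had 31 of 33 positions under 20%, with a mean of 1.46% in their segment. Odf1, the main protein of the outer dense fibers, averaged 98.5% over 3 positions, all outside the span of the gene. Spem1, a spermatid maturation protein, averaged 96.9% over 6. Akap3, an anchor of protein kinase A in the fibrous sheath, had 11 positions between 20% and 80% and 6 over 80%.

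Of the glycolytic genes, Ldhc (the sperm lactate dehydrogenase) had 16 of 18 positions over 80%, the nearest of them 3991 bp downstream of its start. Gapdhs (the sperm glyceraldehyde-3-phosphate dehydrogenase) had 50 positions at 1.16% between 9595 and 10219 bp downstream, 31 of which lie inside another gene. Of the channel genes, Catsper2 averaged 1.58% over 70 positions near its start, Catsper1 and Catsper4 averaged 95.5% over 15 positions and 98.4% over 10, and Catsper3 held 46 positions under 20% and 33 over 80%. Most low positions of Catsper3 lie 40084 to 41463 bp downstream, where 46 of 48 are inside another gene.

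The kinases differed from gene to gene. Tssk6 averaged 1.17% over 55 positions near its start and Tssk3 3.43% over 17. Tssk1 and Tssk2, neighbours on chromosome 16, averaged 97.9% over 14 positions and 98.2% over 6, all at least 143 bp downstream of their starts. Hspa1l, a chaperone of spermatids, averaged 3.09% over 9 positions near its start, and Crem, the factor that switches on many genes of round spermatids, 3.36% over 92 positions, 90 of them inside another gene.

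Where neighbouring positions were grouped into segments (at least 3 positions, each at most 500 bp from the next), the mice differed most at intermediate levels. There were 94 segments in 34 genes. The 32 segments under 20% had a median SD between offspring mice of 1.71 percentage points and the 53 segments over 80% one of 3.56, while the 9 between had 10.8. A fraction near the middle of its scale also has the larger counting error. For single positions the medians were 3.18, 4.39 and 18.0 percentage points at a median of 41 to 45 reads, against 3.68, 5.26 and 18.7 over all positions of the genome, so the spread of these genes lay near that of the genome.

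The 9 intermediate segments lay in Crisp2, Gapdhs, Hspa1l, Spag6, Akap3, Tekt2, Dkkl1, Odf2 and Tekt4. The largest spread was in Gapdhs from -594 to -535 bp of its start, where 4 positions averaged 64.5% ± 16.4 (SD, n = 17 mice). That segment lies inside another gene. Crisp2 averaged 62.4% ± 16.2 (n = 16), and Hspa1l 29.2% ± 14.1 (n = 19) over 16 positions 5597 to 6168 bp downstream. Spag6 averaged 24.4% ± 11.3 (n = 19) over 5 positions from -1216 to -909 bp of its start, and Akap3 57.0% ± 10.8 (n = 20) over 11 positions between 11912 and 12511 bp downstream. In these segments single mice ran from 36.0% to 96.2% in Gapdhs and from 11.7% to 57.5% in Spag6. In the segments of Tekt2, Dkkl1, Odf2 and Tekt4, whose SDs were 5.22 to 7.53 percentage points, the intermediate mean joined low and high positions, which ran from 4.84% to 99.4% in Odf2.

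**Figure D3:**
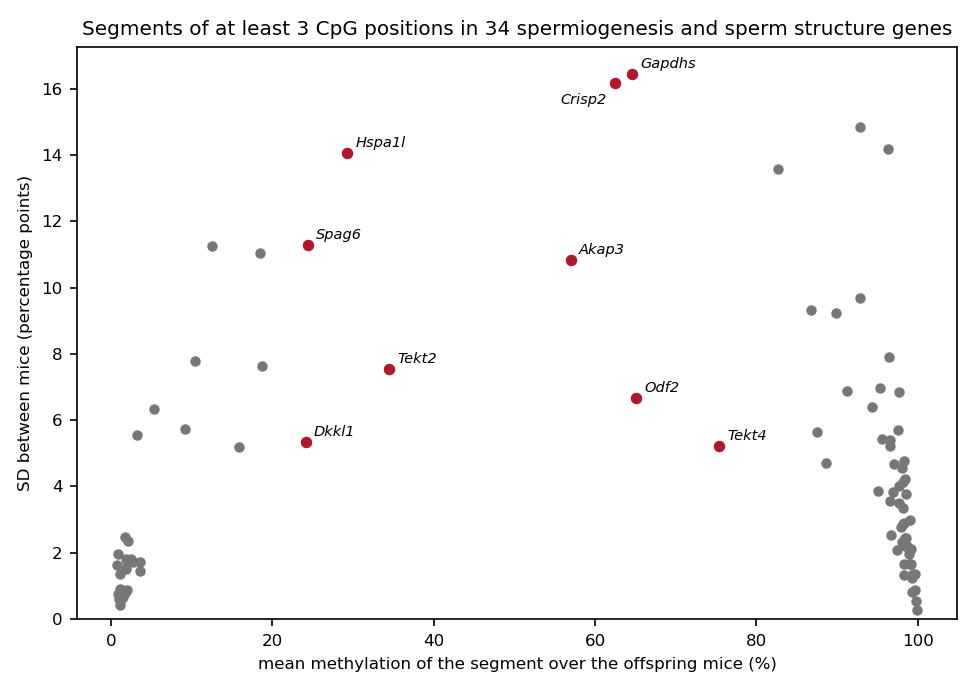
Mean methylation of each of 94 segments over the offspring mice (horizontal axis, percent) against its SD between mice (vertical axis, percentage points), with the 9 segments between 20% and 80% in red and named. Most segments near 0% and 100% lie low, with a few near 100% over 9 percentage points, and Gapdhs and Crisp2 lie highest at 16.4 and 16.2 percentage points.

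For tests by gene, the positions read in all 20 offspring were averaged within each mouse, so that the error is the spread between mice. At least 3 such positions were found in 27 of the 40 genes. Their median level was 27.1%, against 18.5% over 22508 genes, 12.2% over 33 other late spermatogenesis genes and 23.7% over 26 genes of meiosis and of the piRNA pathway. By role, the medians were 2.50% for chromatin condensation (2 genes), 31.1% for the acrosome (6), 35.9% for the flagellum (10), 33.6% for the channel (3) and 3.93% for the kinases, chaperone and transcription factor (4). The glycolytic genes lay at 8.81% (Gapdhs) and 98.3% (Ldhc). Such a mean depends on how many of the positions lie near the start: the mean of Zpbp2 was 98.2% because none of its 7 positions read in all mice lay there.

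The lowest gene means were those of Spaca1 (0.777%), Tssk6 (0.910%), Tnp2 (1.09%), Spag6 (1.14%) and Hspa1l (1.35%). That of Tnp2 comes from 3 positions outside the span of the gene. The highest were those of Catsper1 (98.4%), Ldhc (98.3%), Zpbp2 (98.2%), Tekt4 (93.6%) and Zpbp (92.9%). With fewer than 3 positions, Odf1 stood at 98.2%, outside its span, and Acr at 96.9%. The SD between the 20 mice was largest in Tekt1 (7.95 percentage points over 3 positions) and Akap3 (7.04 over 7 positions), followed by Tekt3 (4.96), Tekt4 (4.15) and Izumo1 (3.07). In Tekt1 the mice ran from 66.7% through a median of 81.3% to 96.2%, and in Akap3 from 53.2% through 61.9% to 78.7%.

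**Figure D4:**
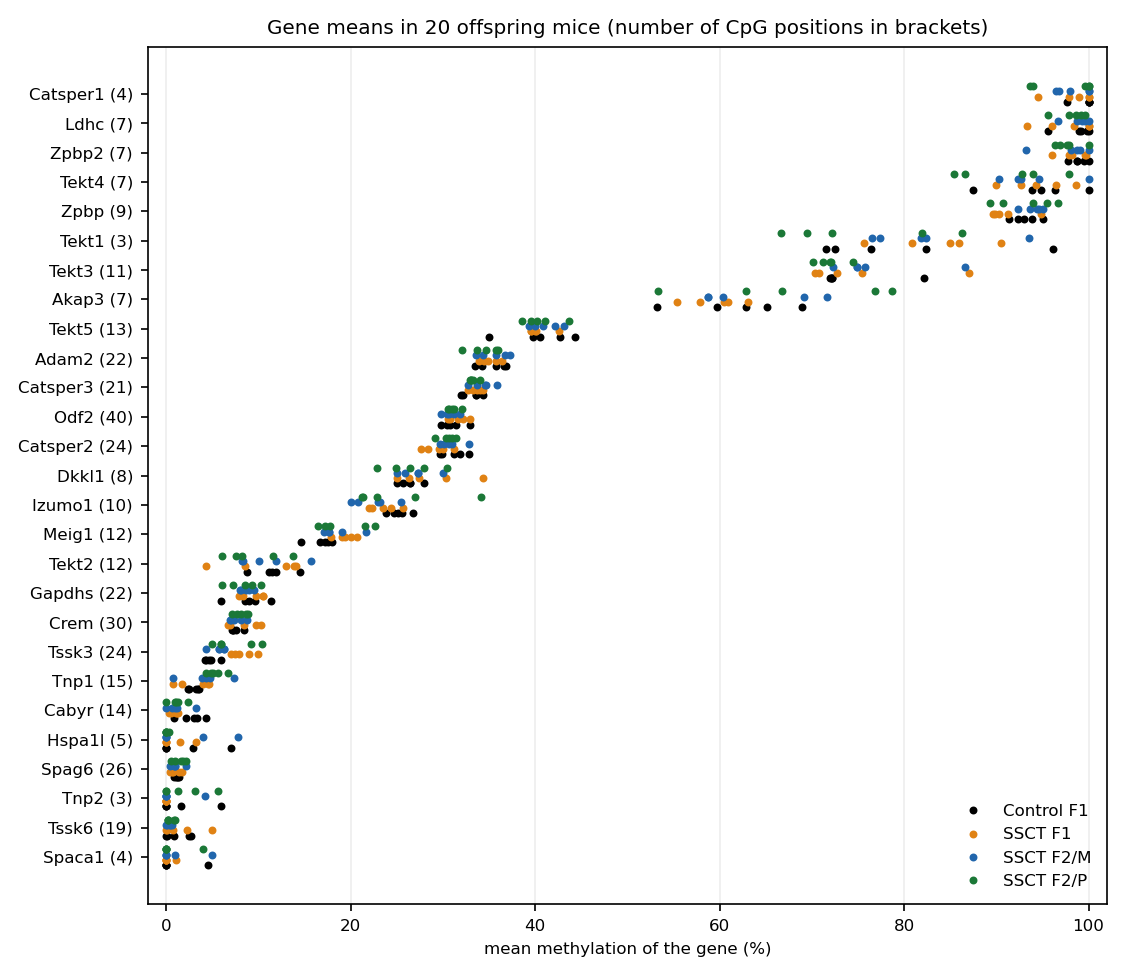
Mean methylation of each of 27 genes (horizontal axis, percent) in every one of 20 offspring mice, colored by group as titled, with the number of CpG positions in brackets. The groups overlap in most genes, and for Tssk3 the 5 SSCT F1 mice (7.03% to 9.99%) lie above the 5 Control F1 mice (4.17% to 5.94%).

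None of the 27 genes differed between the offspring groups by the gene test (limma, adjusted p under 0.05 over 22508 genes). Over the 4 groups at once, 0 genes passed in the whole genome (0%), and at an unadjusted p under 0.05 there were 2 of the 27 genes against 1076 of all (4.78%). The numbers at an unadjusted p under 0.05 were 4 of 27 for SSCT F1 against Control F1 (5.21% of all), 1 for SSCT F2/M (4.55%) and 3 for SSCT F2/P (4.48%), and 0 genes passed the adjusted threshold in each (0% of all). These 3 comparisons share the Control F1 mice. The median difference over the 27 genes was -0.22 percentage points for SSCT F1, 0.14 for SSCT F2/M and -0.10 for SSCT F2/P, against -0.00013, 0.0037 and -0.025 over all genes.

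The lowest unadjusted p among the genes belonged to Tssk3, a serine kinase of spermatids. Its mean over 24 positions was 4.17%, 4.68%, 4.33%, 4.84% and 5.94% in the 5 Control F1 mice and 7.49%, 8.97%, 9.99%, 7.03% and 7.86% in the 5 SSCT F1 mice. These 2 groups did not overlap. The difference was 3.47 percentage points (SE 0.882), with an unadjusted p of 0.000963 and an adjusted p of 0.796 in limma, where 0% of all genes were called. The SSCT F2/M mice ran from 4.35% to 6.31% and the SSCT F2/P mice from 4.95% to 10.4%, and over the 4 groups the adjusted p was 0.980. A share of 85 of the 97 low positions of Tssk3 upstream of its start lies inside another gene.

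Cabyr had the next lowest unadjusted p for SSCT F1. Its mean over 14 positions was 2.99%, 2.10%, 0.884%, 4.37% and 3.30% in Control F1 and 1.05%, 1.17%, 0.351%, 0.4926% and 1.24% in SSCT F1. The groups overlapped. The difference of -1.87 percentage points (SE 0.637) had an adjusted p of 0.837 in limma. Against the same control mice the differences were -1.53 for SSCT F2/M and -1.59 for SSCT F2/P, and neither passed the test.

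For SSCT F1 the largest differences by gene were those of Tekt1 (83.6% ± 5.61 against 79.8% ± 10.1 in Control F1, n = 5 each), Tssk3 and Meig1 (19.4% ± 1.07 against 16.8% ± 1.34). For SSCT F2/M they were those of Tekt3 (76.9% ± 5.58 against 74.2% ± 4.502), Izumo1 (22.5% ± 2.18 against 25.2% ± 1.11) and Tekt1 (82.3% ± 6.79). For SSCT F2/P they were those of Akap3 (67.7% ± 10.4 against 62.0% ± 5.97), Tekt1 (75.3% ± 8.41) and Tekt4 (91.3% ± 5.22 against 94.5% ± 4.58). The adjusted p was at least 0.796 for all of these in limma.

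Single CpGs were compared with the test of the study's software, which sums the reads of a group. A differentially methylated CpG (DMC) had a q under 0.01 and shares of all reads that differed by more than 25 percentage points. The reads of 1 mouse are not replicates, so the values of the mice and an exact permutation test over mice stand beside each DMC. That test was run only at CpGs already called for a difference in the same mice, and its adjustment covers those CpGs alone. Its p-values are therefore biased low and are no independent test of the DMCs. With the sample titles there were 2 DMCs among 503 positions of the genes for SSCT F1 (0.462% of all positions were called), 2 of 516 for SSCT F2/M (0.42%) and 1 of 618 for SSCT F2/P (0.43%). With the names of the published plot there were 1 of 653 (0.404%), 2 of 516 (0.42%) and 2 of 529 (0.439%). As titled, 0.398%, 0.388% and 0.162% of the positions of the genes were called, and with 1 or 2 calls each these shares were not told apart from those of the genome. When the test was scaled by the spread between mice (an F test), 0 positions were called in each comparison, in the genes and in the genome, while 40, 45 and 53 positions of the genes stood at an unadjusted p under 0.05 (7.95%, 8.72% and 8.58%, against 7.68%, 7.70% and 7.81% of all).

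Both DMCs of SSCT F1 lay in Ldhc, 18 bp apart on 1 strand. At +8184 bp from the start (chromosome 7, position 46869671) the methylation was 59.3%, 100%, 100%, 75.0% and 100% in SSCT F1 and 19.05%, 0%, 55.0%, 89.5% and 63.2% in Control F1, at 15 to 50 reads. SSCT F1 was higher on average, 86.9% against 45.3%, with overlapping groups (exact permutation test, two-sided, p = 0.0476, adjusted p = 0.222 over 16 DMCs). Without Control F1 replicate 2, listed at 0%, the difference in reads shrank from 43.5 to 26.6 percentage points. At +8202 bp, position 46869689, the means were 91.9% and 64.9% (exact permutation p = 0.246). The difference at this second CpG was 33.0 percentage points and became 16.1, no longer called, without Control F1 replicate 5, which was listed at 0% there.

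In SSCT F2/M the DMCs lay in Dkkl1 and Tekt5. At +654 bp of Dkkl1 (chromosome 7, position 45211229) the methylation was 76.2%, 42.4%, 100%, 44.8% and 48.6% in Control F1. The SSCT F2/M mice stood at 0%, 61.9%, 40.0%, 0% and 10.0%, lower on average but overlapping. The difference of -31.8 percentage points became -21.3, no longer called, without Control F1 replicate 3 and -55.6 without SSCT F2/M replicate 2. The exact permutation test over mice gave p = 0.0556 (adjusted p = 0.222).

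At +10037 bp of Tekt5 (chromosome 16, position 10385418) the mice of Control F1 spread over the whole scale, at 28.6%, 100%, 100%, 61.5% and 0%, each at 13 to 16 reads. The SSCT F2/M mice were at 0% except 1 at 10.8%, and the SSCT F2/P mice were at 0% except 1 at 11.1%. The CpG was called in both comparisons, which share these control mice, and the exact permutation p was 0.0476 in each (adjusted p = 0.222). The groups overlapped, since 1 control mouse was at 0%. In SSCT F1 only 2 mice had 10 reads there, at 29.4% and 46.2%.

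Under the names of the plot the sets titled SSCT F2/M and Control F1 change places, so both of these DMCs turned and were higher in SSCT F2/M, by 31.8 percentage points at Dkkl1 and by 56.6 at Tekt5. For SSCT F1 and SSCT F2/P the plot's names gave other CpGs. The call for SSCT F1 was the CpG 6752 bp downstream of the start of Tekt1 (difference of -30.7 percentage points, exact permutation p = 0.214). The calls for SSCT F2/P were the CpG at -945 bp of Spag6 (-25.9, exact permutation p = 0.0714) and a CpG 777 bp downstream of the start of Tekt2 (25.5, exact permutation p = 0.0476). Neither CpG of Ldhc could be tested for SSCT F1 under these names, since mice of the control set had under 10 reads there.

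**Figure D5:**
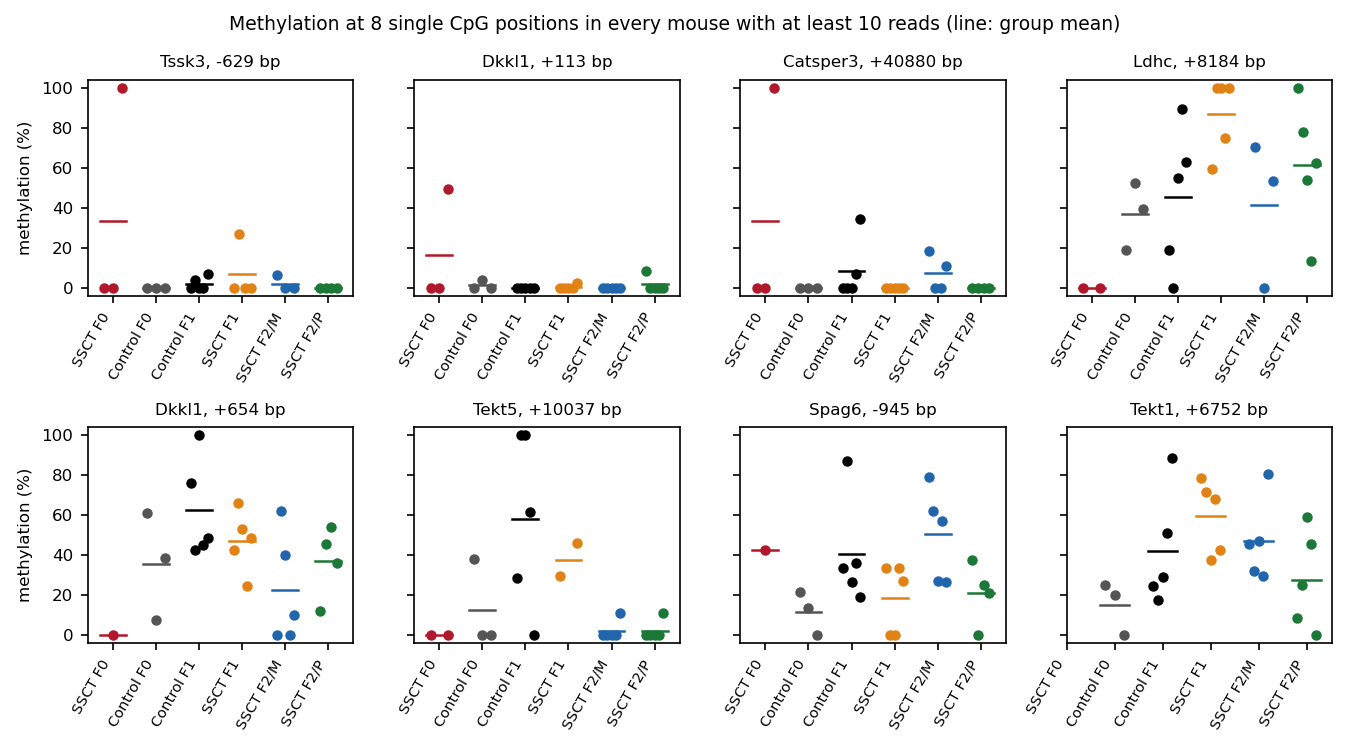
Methylation (vertical axis, percent) at 8 DMC positions of the genes in each mouse with at least 10 reads, by group as titled, with the group mean as a line. In the panels of Tssk3, Dkkl1 at +113 bp and Catsper3 a single SSCT F0 mouse lies apart (100%, 49.5% and 99.8%) and all others of that group are at 0%, and in the other panels Control F1 overlaps with each group it was compared with.

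Between the founders, 76 positions of the genes were read in all 6 males and 6 of them were DMCs, all higher in SSCT F0 (5.83% of all 82250 positions were called). In each of the 6, the difference came from SSCT F0 replicate 3 alone. At -629 bp of Tssk3 (chromosome 4, position 129491399) that mouse was at 100% of 302 reads and the other 5 founders were at 0%, and the same held at position 129491529 with 421 reads. At position 55825459 near Catsper3 it was at 99.8% and the other 5 were at 0%. At 3 CpGs 93 to 113 bp downstream of the start of Dkkl1 it was at 49.4% to 49.7%, and the other SSCT F0 mice were at 0%. The exact permutation p was 1 for each, and 3 mice against 3 cannot go below 0.1. Without that mouse, 2 of the 3 differences at Dkkl1 turned negative, to -2.51 and -9.32 percentage points, and the other differences became 0. The F test called 0 positions, with 11 positions of the genes at an unadjusted p under 0.05 (14.5%, against 11.6% of all).

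By gene, 9 of the 40 genes had 3 positions in all 6 founders, and limma called none of them (0% of 10777 genes), with 0 of 9 and 660 of all genes at an unadjusted p under 0.05. The largest differences were those of Dkkl1 (0%, 0% and 37.2% in SSCT F0 against 15.3%, 1.73% and 3.51% in Control F0), Catsper3 (3.56%, 0% and 14.3% against 3.38%, 0% and 0%) and Tssk6 (0%, 0% and 0.158% against 3.77%, 0% and 9.34%). The high values in Dkkl1 and Catsper3 were those of SSCT F0 replicate 3. The effect of the founders was also set against that of SSCT F1 in 8 genes, and limma called none (0% of 8066 genes), with 0 of 8 at an unadjusted p under 0.05.

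Without SSCT F0 replicate 3 many more positions could be compared, 532 in the genes, and 22 of them were DMCs, 8 higher and 14 lower in SSCT F0 (5.83% of all 599359 positions were called). They lay in 12 genes: Catsper2, Tekt2, Akap3, Izumo1, Ldhc, Tssk6, Zpbp2, Adam2, Tekt5, Tekt4, Hspa1l and Crem. The most in 1 gene were the 6 of Akap3, all between 11912 and 12092 bp downstream on the plus strand, in the intermediate segment. At the first, position 126865010 of chromosome 6, SSCT F0 was at 18.2% and 0% and Control F0 at 100%, 46.3% and 70.9%. Positions 126865030 and 126865036 had the same group means, 9.09% in SSCT F0 and 70.5% in Control F0. Neighbouring CpGs of 1 strand can lie on the same reads, so the 6 are not independent calls. With 2 mice against 3 the exact permutation p of a CpG whose groups do not overlap is 0.2, the smallest possible.

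Over 6 positions read in these 5 males the mean of Akap3 was 20.7% and 0% in SSCT F0 and 86.5%, 51.1% and 70.3% in Control F0. The difference of -59.0 percentage points (SE 12.9) had an adjusted p of 0.326 in limma. In the offspring the mean of Akap3 over these 6 positions ran from 45.4% to 75.1%. Zpbp went the other way, at 98.2% and 100% against 90.4%, 92.3% and 90.8%, with a difference of 7.94 percentage points (SE 1.30) and an adjusted p of 0.227. Limma called 13 of 22609 genes in this comparison (0.0575%) and 0 of the 25 genes tested here, of which 4 had an unadjusted p under 0.05 (2265 of all genes).

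In Zpbp2 both DMCs rested on SSCT F0 replicate 2, which covered only 891 positions of these genes, though at a median of 41 reads. At position 98551135 of chromosome 11, 38 bp downstream of the start of Zpbp2 and inside the window printed above, it was at 100% and the other 4 males were at 0%. At position 98556309, 5212 bp downstream, it was at 0% and the others were at 100%. The groups overlapped at other DMCs as well. The 2 SSCT F0 males were at 0% and 100% in Crem, in Tekt4 and at +8202 bp of Ldhc. They were at 0% and 47.8% in Izumo1, at 0% and 52.4% in Tssk6 and at 0% and 55.9% at +64 bp of Tekt2. At the DMCs of Akap3 the groups did not overlap. At position 126322905 of chromosome 4, 2530 bp downstream of the start of Tekt2, both SSCT F0 males were low, at 13.9% and 0%, against 100%, 51.7% and 89.1% in Control F0. In Catsper2, 128 bp downstream of the start, both were higher, at 18.8% and 46.2% against 0%, 0% and 12.9%. At the CpG 8184 bp downstream of the start of Ldhc, which was also called in SSCT F1, both SSCT F0 males were at 0% and Control F0 at 18.9%, 52.4% and 39.5%.

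Control F0 and Control F1 differ in age, 16 to 18 against 3 months, and in generation. Of 601 positions of the genes, 5 were DMCs, 1 higher and 4 lower in the older males (0.863% of all positions were called), and with the names of the published plot 4 of 647 (0.823%). The F test called 0, with 48 positions of the genes at an unadjusted p under 0.05 (7.99%, against 7.23% of all). The 5 DMCs lay in Spag6, Ldhc, Tekt1 and Tekt5. At -945 bp of Spag6 (chromosome 2, position 18698077), in its intermediate segment, the older males were at 21.7%, 13.6% and 0% and the Control F1 mice at 33.3%, 87.2%, 26.5%, 36.0% and 19.1% (exact permutation p = 0.0714, adjusted p = 0.229 over 16 DMCs). At -918 bp the older males were at 0%, 1.72% and 0% and Control F1 at 21.4%, 42.1%, 76.5%, 22.03% and 0% (exact permutation p = 0.143). The groups overlapped at both. Neither was called without the highest Control F1 mouse: the difference became -16.9 percentage points at -945 bp without replicate 2 and -19.4 at -918 bp without replicate 3. At -945 bp it was also not called without Control F0 replicate 3 (-23.8).

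In Tekt1, 6752 bp downstream of the start (chromosome 11, position 72354544), the older males were at 25%, 20.0% and 0% and Control F1 at 24.3%, 17.5%, 29.3%, 51.2% and 88.6%, with overlapping groups (exact permutation p = 0.179). The difference of -30.1 percentage points became -19.7 without Control F1 replicate 5 and -20.3 without Control F0 replicate 3, and was then not called. Under the names of the plot, the control mice were at 29.4% to 80.6% and did not overlap with the older males (exact permutation p = 0.0357, adjusted p = 0.0918 over 9 DMCs), and the same p was found at -945 bp of Spag6, where those control mice were at 26.4% to 79.1%.

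The single DMC higher in the older males was that of Ldhc at +8202 bp, at 71.1%, 85.7% and 100% against 100%, 69.8%, 65.0%, 89.5% and 0% (exact permutation p = 0.464). Its difference of 26.8 percentage points became 9.89 without Control F1 replicate 5 and 19.7 without Control F0 replicate 3, and was then not called. At +10037 bp of Tekt5 the older males were at 37.8%, 0% and 0%, within the range of Control F1 (exact permutation p = 0.25).

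By gene, limma called none of 30 genes between Control F0 and Control F1 (0% of 25389 genes), with 0 of 30 and 1249 of all genes at an unadjusted p under 0.05. The largest differences were those of Tssk1 (100% in each of the 3 older males against 91.0%, 100%, 100%, 100% and 73.8%), Akap3 (72.9% ± 14.3 against 69.0% ± 5.09) and Tekt1 (21.5% ± 1.32 against 24.3% ± 3.24, over 10 positions). The median difference over the 30 genes was 0.015 percentage points, with 16 higher and 14 lower.

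No gene of the related lists was called either. Of 33 other late spermatogenesis genes, limma called 0 in the offspring comparisons, with 3, 5 and 4 genes at an unadjusted p under 0.05 for SSCT F1, for SSCT F2/M and for SSCT F2/P, where 5.21%, 4.55% and 4.48% of all genes stood. Of 26 genes of meiosis and of the piRNA pathway it called 0, with 2, 3 and 3 genes. The median differences of both lists lay between -0.11 and 0.49 percentage points.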

How the data were processed

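Sperm of 26 mice was measured by RRBS. The authors deposited for each library a table of CpG positions with the strand, the fraction of reads methylated and the coverage as a count of reads, not normalized. The submitters' processing notes name Trim Galore 0.4.1, Bismark 0.20.0, methylKit 1.7.0 and the build GRCm38 (mm10). Strands were kept apart, and PCR copies were not removed by identifiers, so coverage can overstate the number of molecules. The labels state that 3 libraries had less input but name them only by number. In the order in which the samples are listed, these numbers fall on the 3 SSCT F0 libraries. The labels do not say that this order is meant. The paper gives a low yield of DNA among its reasons for leaving the founder comparison out of its validation. If these are the libraries, lower input cannot be told apart from transplantation between the founders.

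Fractions and coverage were turned back into methylated and unmethylated reads. Positions needed at least 10 reads and at most the 99.9th percentile of coverage in each library of a test. DMCs came from a logistic model per position with a likelihood-ratio test, Benjamini-Hochberg q under 0.01 and a difference above 25 percentage points. Gene means (at least 3 positions) were tested with limma 3.58.1 in R 4.3.3, with a mean-variance trend and Benjamini-Hochberg adjustment over all genes. Single CpGs were compared over mice by exact permutation tests in scipy 1.17.1, two-sided, with adjustment over the DMCs of the genes. The tests were tested on simulated data. Alternatives were coverage of 5 or 20 reads, no upper limit, gene span only, merged strands, an F test with overdispersion estimated between mice, a difference of 10 percentage points, a replicate block, each mouse left out and the names of the published plot. Genes named in full were those with a call or a DMC, the 5 lowest and highest and the 5 of largest SD in the offspring, and the 3 largest differences per comparison; the CpGs named outside that rule were chosen after their values were seen. The genes and lists were chosen with earlier results of these data known. Over 325 pairs of libraries the largest correlation was 0.914, and none were copies. Mice with the same replicate number did not deviate together (15 pairs, correlations of -0.0156 to 0.0529), so numbers were not taken as pairs. Gene spans and sequences were those of RefSeq for GRCm38.p6.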

Additional observations from a re-analysis of the deposited data

Results flagged for a closer look

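Some mice stood far from the others of their group, by Dixon's test at 95%. Chance alone flags about 1 in 20 groups of normally distributed values, a rate that does not hold where most mice are at 0%. Of 107 sets of gene means, 13 held such a mouse. Many lay in genes near 0%, where a single mouse with any methylated reads stands out. Spaca1 was at 4.5% in Control F1 replicate 3, 1.04% in SSCT F1 replicate 5, 5.00% in SSCT F2/M replicate 3 and 4.00% in SSCT F2/P replicate 5, with the other mice between 0% and 1%. Tnp2 was at 5.97% in Control F1 replicate 3 and 4.17% in SSCT F2/M replicate 1, and Hspa1l at 0.339% in SSCT F2/P replicate 3. Tekt3 was at 82.2% in Control F1 replicate 2, where the others were at 72.0% to 72.2%, and at 86.6% in SSCT F2/M replicate 3, where they were at 72.3% to 75.8%. Tekt5 was at 42.5% in SSCT F1 replicate 5. Lower than the others were Zpbp2 at 93.2% in SSCT F2/M replicate 1, Ldhc at 95.6% in Control F1 replicate 1 and Catsper1 at 97.6% in Control F1 replicate 1.

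Of 42 sets of values at single DMCs, 13 held such a mouse. These CpGs were chosen for differences in these data, and in many sets all other mice were at 0%. The number therefore cannot be set against a rate of chance. At the 2 Tssk3 positions, SSCT F1 replicate 3 was at 26.7% (129491399), and Control F1 replicate 5 at 7.87% and SSCT F2/M replicate 5 at 3.49% (129491529), with the others at 0%. At the Dkkl1 positions near the start, SSCT F1 replicate 5 was at 2.33% and SSCT F2/P replicate 1 at 8.22% (45211770), and Control F1 replicate 3 at 6.82%, SSCT F1 replicate 3 at 10.6% and SSCT F2/M replicate 1 at 2.38% (45211772). Near Catsper3, Control F1 replicate 5 was at 34.2%. At +8202 bp of Ldhc, SSCT F1 replicate 1 was at 59.3% and the other mice of its group at 100%. At -945 bp of Spag6, Control F1 replicate 2 was at 87.2%, where the others were at 19.1% to 36.0%. At +10037 bp of Tekt5, SSCT F2/M replicate 5 was at 10.8% and SSCT F2/P replicate 5 at 11.1%, with the others at 0%.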

How the results depend on the processing

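Of the genes described here, limma called 0 in all 158 alternatives run. Over all genes it called 13 of 22609 (0.0575%) between the founders without SSCT F0 replicate 3. The number of DMCs in the genes rested on the choices. With the F test it was 0 in each of the 5 comparisons. With a difference of 10 percentage points it was 11 for SSCT F0 (6 as reported), 34 for SSCT F1 (2), 24 for SSCT F2/M (2), 17 for SSCT F2/P (1) and 32 for Control F0 against Control F1 (5). With at least 5 reads it was 7 for SSCT F2/M, 4 for SSCT F2/P and 9 for the controls, and with at least 20 reads it was 0 for each offspring group and 2 for the controls. Merged strands gave 3 for the controls, and the names of the published plot gave 1 for SSCT F1 and 2 for SSCT F2/P, none of them the CpGs called under the titles. The cause of these shifts was not tested beyond the thresholds themselves and the number of positions they leave.

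Leaving out 1 mouse gave 6 to 22 DMCs for SSCT F0 (22 without SSCT F0 replicate 3, when more positions could be compared), 2 to 3 for SSCT F1, 1 to 5 for SSCT F2/M (1, 4 and 5 without Control F1 replicates 3, 4 and 5), 1 to 3 for SSCT F2/P (3 without Control F1 replicate 3 or 4 or SSCT F2/P replicate 1 or 4, and 2 without Control F1 replicate 5 or SSCT F2/P replicate 2 or 3) and 2 to 9 for the controls (9 without Control F0 replicate 1 and 2 without Control F0 replicate 3). Of 229 recomputed differences at single DMCs, 194 stayed called in the same direction, 30 were no longer called and 5 reversed. Under the names of the plot, 3 reversed: Dkkl1 at 45211229 (31.8 percentage points) and Tekt5 at 10385418 (56.6) for SSCT F2/M, since these names exchange the groups, and Tekt5 at 10385418 for the controls (15.2). In Dkkl1 2 reversed without SSCT F0 replicate 3 (leaving out 1 mouse gave -2.51 to 45.5 percentage points at 45211770 and -9.32 to 39.5 at 45211790). Of the gene means of the offspring, 14 of 29 stayed within 1 SD between mice with at least 5 reads, 18 of 25 with the gene span only and 23 of 29 with reads as weights.

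With the replicate number as a replicate block the DMCs in the genes numbered 6 for SSCT F0, 2 for SSCT F1, 2 for SSCT F2/M and 1 for SSCT F2/P, as without it. Limma with this block called 0 of the genes described here. The numbers did not pair the mice. The block was not run for Control F0 against Control F1, where 2 Control F1 mice have no counterpart. The number of positions read limits what can be said of the founders (76 positions of the genes in all 6 males) and of the protamine genes.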

Other observations

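The intermediate segment of Akap3 allowed the 2 strands of 1 CpG to be set side by side in the same mouse, at positions 126865121 (plus strand) and 126865122 (minus strand) of chromosome 6. In SSCT F2/P replicate 3 the plus strand was at 100% of 29 reads and the minus strand at 30.3% of 33 reads. In Control F1 replicate 4 the strands were at 93.5% of 31 reads and 0% of 14 reads, and in SSCT F1 replicate 2 at 69.4% of 36 reads and 0% of 34 reads. In SSCT F2/M replicate 4 they were alike, at 64.2% of 53 reads and 65.0% of 20 reads. Over the 22 mice with 10 reads on both strands the difference between strands had a median of 28.8 percentage points, from 0.849 to 93.5, and was over 25 in 13 mice. The 4 mice above were chosen after their values were seen. The CpG was taken because both of its strands were called as DMCs, so it was chosen for differences in these data. The plus strand was called between the founders without SSCT F0 replicate 3. The minus strand was called between Control F0 and Control F1 under the names of the published plot. Strands were not compared at other CpGs.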
